A study of Homo sapiens with 6 samples.

Results

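The 28 genes described here make, sense, move and export cholesterol. They were taken by symbol from a deposited table of 17721 genes, and all 28 were found in it. They run from the condensation of acetyl-CoA to the last sterol reductases (18 genes), through the sensors of sterol level (4 genes) and the proteins of transfer and esterification (4 genes), to the sterol exporters ABCA1 and ABCG1. All but ABCG1 had enough counts to be tested, which left 27.

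The cells were MDA-MB-231BR, a brain-tropic derivative of the human triple-negative breast cancer line MDA-MB-231. They carried either a control shRNA or an shRNA against ACSS2, stably expressed after lentiviral transduction and drug selection, and both groups grew as monocultures in DMEM with fetal bovine serum. Each group has 3 poly(A)-selected libraries from whole-cell lysates, which the labels call biological replicates without saying what separates them, and a batch tag numbers them 1 to 3 in both groups. The labels do not say how many hairpin sequences were used, and no untransduced library or re-expression of ACSS2 was analysed here.

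Cholesterol is built from cytosolic acetyl-CoA, which the mevalonate pathway turns into farnesyl pyrophosphate, the squalene steps into lanosterol, and a last series of demethylations, isomerisations and reductions into cholesterol. ACSS2 is the enzyme that makes acetyl-CoA from acetate in the cytosol and nucleus. When membrane sterol is low, SCAP escorts the membrane-bound factor SREBP2, the product of SREBF2, to the Golgi, where it is cut and released to drive most of these genes. When sterol is plentiful, INSIG proteins hold SCAP back and oxysterols activate LXR, the nuclear receptor that drives ABCA1 and ABCG1. Cells in serum take up lipoprotein cholesterol, which NPC1 and NPC2 pass out of lysosomes, and store the surplus as esters made by SOAT1.

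The libraries held between 15048275 and 18608124 counts. Markers of the parent line were high, with VIM, CD44, AXL, CAV1 and MSN between 89.2 and 6439 CPM (counts scaled to library size with TMM factors), and ESR1, PGR and CDH1 reached at most 1.82 CPM. With the replicate block in edgeR, CD44 (log2 fold change -0.57, adjusted p = 0.00598) and CAV1 (-0.35, adjusted p = 0.0348) were lower in ACSS2 shRNA. VIM, AXL and MSN were not called. Neither CD44 nor CAV1 passed in the unpaired edgeR fit (adjusted p = 0.190 and 0.617). Of 10 markers of other cell types, 6 stayed at or under 1 CPM in each library, ALB was above 0 in control replicate 3 only, and the summed list ran from 10.1 to 45.2 CPM in control and from 8.57 to 30.9 CPM in ACSS2 shRNA. RBFOX3, a neuronal splicing factor, reached the highest level of that list, with 2.05, 16.5 and 37.9 CPM in control libraries 1 to 3 and 1.17, 9.68 and 20.6 CPM in the knockdown libraries. RBFOX3 was called lower with the replicate block in edgeR (log2 fold change -0.82, adjusted p = 0.00221) but not unpaired (adjusted p = 0.760). It also differed between replicate numbers, by 4.17 on the log2 scale between numbers 3 and 1 (edgeR F test of the replicate number, adjusted p = 3.8e-07). All 8 proliferation genes measured (MKI67, TOP2A, CCNB1, CDK1, BUB1, PLK1, AURKA and CCNA2) fell with the replicate block in edgeR, and their summed level was 2036, 1326 and 485 CPM in control libraries 1 to 3 and 1037, 666 and 364 CPM in the knockdown libraries. In the unpaired edgeR fit none of the 8 passed (adjusted p between 0.349 and 0.626), and the groups overlapped for each of them. The part of proliferation in the sterol gene values below was not tested.

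ACSS2, the target of the hairpin (gene ID 55902, chromosome 20, 34874989 to 34927959), measured 76.3, 71.2 and 163.6 CPM in control libraries 1 to 3, against 11.1, 50.5 and 88.7 CPM in the knockdown libraries. Each knockdown library lay below the control library of its number, but ACSS2 shRNA replicate 3 lay above control replicates 1 and 2, so the groups overlap. In the edgeR fit without the replicate number, named the unpaired fit below, its log2 fold change was -1.05 ± 0.64 (adjusted p = 0.504), where ± gives the SE of log2 fold changes throughout. With the replicate number as a block, named the blocked fit, it was -1.31 ± 0.30 (adjusted p = 0.00757). Without ACSS2 shRNA replicate 1 the unpaired value was -0.59 (adjusted p = 0.667). The log2 ratio was -2.78 in pair 1, -0.50 in pair 2 and -0.88 in pair 3, pairs being libraries of the same number, and without replicate 1 the blocked value was -0.70 (adjusted p = 0.00249). The blocked call was lost with DESeq2 (-1.38, adjusted p = 0.132).

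The sterol genes did not move in one direction. In the unpaired fit none of the 27 passed at an adjusted p under 0.05, where 0.0231% of all 13003 genes tested were called higher and 0.0461% lower. At an unadjusted p under 0.05 there were 3 higher and 4 lower, where 6.89% of all genes tested were higher and 7.11% lower by that rule. DESeq2 without the block called ABCA1 higher and ACAT2, EBP and SOAT1 lower, where it called 1.5% of 13279 genes higher and 2.14% lower. In the blocked fit, 5 genes rose (LSS, INSIG1, STARD4, NPC1 and ABCA1) and 6 fell (ACAT2, FDFT1, MSMO1, EBP, SREBF2 and SOAT1), where 12.7% of all genes tested were called higher and 12.4% lower. That makes 40.7% of the 27, beside 25.1% for all genes. The median log2 fold change of the 27 was -0.05 unpaired and -0.04 blocked, beside 0.02 for all genes in both fits. The groups did not overlap for 2 genes that were higher in ACSS2 shRNA (INSIG2 and ABCA1) and 4 that were lower (ACAT2, EBP, SREBF2 and SOAT1), against 10.7% and 9.63% of all genes tested.

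**Figure D1:**
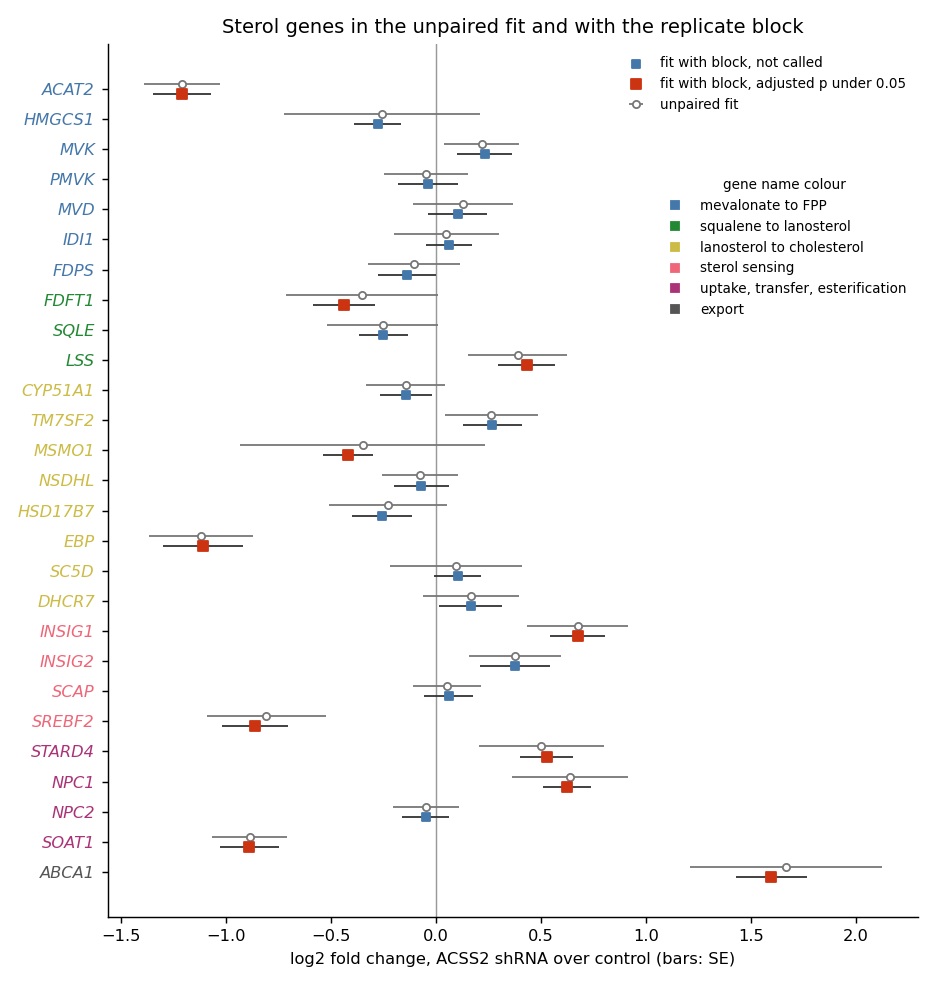
Log2 fold change of the 27 tested sterol genes (ACSS2 shRNA over control, bars are the SE) in the unpaired fit (open circles) and the blocked fit (squares, red where the adjusted p was under 0.05), in pathway order from top to bottom. Estimates of both fits lie close together for each gene while the blocked SE is shorter, and the largest rise is that of ABCA1 (1.67 unpaired, 1.60 blocked).

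Because RNA came from bulk lysate, fewer cells with a transcript and less RNA per cell cannot be told apart. On the length-corrected TPM scale, set by the authors, the most abundant genes in control were FDFT1 (348 ± 93.8 TPM, mean ± SD, n = 3), FDPS (310 ± 14.9 TPM) and NPC2 (256 ± 16.4 TPM), of which FDFT1 overlapped with both while each NPC2 value lay below each FDPS value. The least abundant were INSIG2 (6.04 ± 0.45 TPM), ABCA1 (1.36 ± 0.50 TPM) and ABCG1 (0.11 ± 0.10 TPM), which did not overlap with one another. FDPS synthesises farnesyl pyrophosphate, the branch point for sterols and prenyl groups, and FDFT1 is squalene synthase, the first enzyme committed to sterols. All other genes had control means between 15.2 TPM (STARD4) and 180 TPM (DHCR7).

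**Figure D2:**
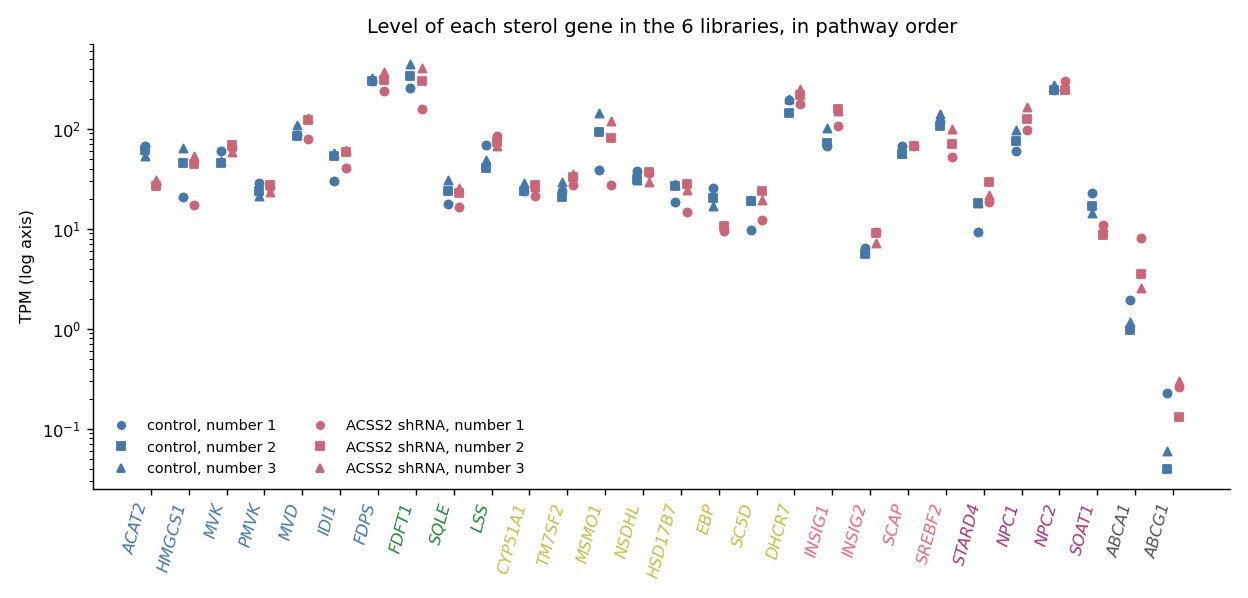
TPM (log axis) of all 28 sterol genes in the 3 control (blue) and 3 ACSS2 shRNA (red) libraries, in pathway order, with a marker shape for each replicate number and name colours for the role as in the plot of fold changes. FDFT1, FDPS and NPC2 sit highest, and ABCA1 and ABCG1 lowest.

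Of the 7 genes from acetyl-CoA to farnesyl pyrophosphate, ACAT2 fell in the blocked fit and 6 did not pass. ACAT2 encodes the cytosolic thiolase that joins acetyl-CoA units at the entry of the pathway (gene ID 39, chromosome 6, 159762045 to 159779112). It measured 59.8, 50.3 and 47.9 CPM in control libraries 1 to 3, against 21.3, 20.8 and 26.3 CPM in the knockdown libraries. The knockdown libraries all lay below the controls, with no overlap, and the fall was present in each pair. It was 2.31-fold lower, on the log2 scale at -1.21 ± 0.18 unpaired (adjusted p = 0.0702) and -1.21 ± 0.14 blocked (adjusted p = 0.000136). The ACAT2 span overlaps SOD2 by 237 bases and TCP1 by 615 bases, and whether counting used strand is not stated in the sources used here. SOD2, the mitochondrial superoxide dismutase, went the other way, from 198, 247 and 217 CPM in control to 472, 481 and 451 CPM in ACSS2 shRNA (blocked log2 fold change 1.09, adjusted p = 0.000127). TCP1 went the same way as ACAT2 in each pair, from 193, 173 and 112 CPM to 147, 124 and 106 CPM. It was not called (blocked log2 fold change -0.32, adjusted p = 0.0613). Whether reads of either neighbour entered the ACAT2 counts was not tested.

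HMGCS1, the synthase that makes HMG-CoA, measured 55.0, 109 and 160 CPM in control libraries 1 to 3, against 40.9, 103 and 128 CPM in the knockdown libraries. In both groups the library numbered 1 was far lower than the others, and the difference between numbers was larger than that between groups. Its log2 fold change was -0.26 ± 0.47 unpaired (adjusted p = 0.848) and -0.28 ± 0.11 blocked (adjusted p = 0.0894), with all 3 pairs below 0. The kinases MVK and PMVK, which phosphorylate mevalonate, the decarboxylase MVD, the isomerase IDI1 and FDPS had blocked log2 fold changes between -0.14 (FDPS) and 0.23 (MVK), and none passed in either fit. For PMVK (-0.04 blocked), scaling by library size only (0.02) or TPM (0.07) turns the sign. MVK, PMVK, MVD and FDPS were each below 0 in pair 1 (-0.11, -0.33, -0.33 and -0.55) and, apart from FDPS at -0.01 in pair 2, above 0 in the other pairs.

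Of the 3 squalene genes, FDFT1 fell and LSS rose in the blocked fit, in the same short stretch of the pathway. FDFT1 (gene ID 2222) measured 324.9, 397.8 and 559.3 CPM in control libraries 1 to 3, against 174.9, 334.9 and 493.8 CPM in the knockdown libraries. The groups overlap widely, and the log2 ratio was -0.89 in pair 1 against -0.25 and -0.18 in pairs 2 and 3. Its log2 fold change was -0.35 ± 0.36 unpaired (adjusted p = 0.715) and -0.44 ± 0.15 blocked (adjusted p = 0.0435). The blocked call was lost without replicate 1 (-0.22, adjusted p = 0.185) and without replicate 2 (-0.57, adjusted p = 0.0630).

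LSS, lanosterol synthase, which closes the sterol rings (gene ID 4047, chromosome 21, 46188446 to 46228774), measured 173.9, 93.0 and 118.5 CPM in control libraries 1 to 3, against 184.3, 161.8 and 158.3 CPM in the knockdown libraries. The knockdown libraries were close to each other, and control replicate 1 lay within their range. LSS had a log2 fold change of 0.39 ± 0.23 unpaired (adjusted p = 0.500) and 0.43 ± 0.14 blocked (adjusted p = 0.0349). Without replicate 2 the blocked value was 0.22 (adjusted p = 0.487), and with RLE factors in place of TMM it was 0.41 (adjusted p = 0.0579). SQLE, the epoxidase between FDFT1 and LSS, measured 31.0, 38.3 and 53.5 CPM in control libraries 1 to 3, against 25.3, 34.5 and 43.1 CPM in the knockdown libraries, lower in all 3 pairs but not called (-0.25, SE 0.12, adjusted p = 0.131 blocked).

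Among the 8 genes from lanosterol to cholesterol, EBP and MSMO1 fell in the blocked fit, none rose and 6 did not pass. EBP is the sterol isomerase that shifts a ring double bond (gene ID 10682, chromosome X, 48521808 to 48528716). It measured 16.6, 12.3 and 11.1 CPM in control libraries 1 to 3, against 5.40, 6.10 and 6.89 CPM in the knockdown libraries, so the groups are well apart. Its log2 fold change was -1.12 ± 0.25 unpaired (adjusted p = 0.118) and -1.11 ± 0.19 blocked (adjusted p = 0.00150), 2.16-fold lower. MSMO1, the methylsterol oxidase that acts after CYP51A1 in removing ring methyl groups (gene ID 6307, chromosome 4, 165327669 to 165343164), measured 49.7, 107.9 and 184.1 CPM in control libraries 1 to 3, against 30.7, 89.7 and 147.5 CPM in the knockdown libraries. Each knockdown library was lower than its partner, yet the spread over numbers in either group was wider than any of these steps. The log2 fold change of MSMO1 was -0.35 ± 0.58 unpaired (adjusted p = 0.834) and -0.42 ± 0.12 blocked (adjusted p = 0.0225), and the blocked call was lost without replicate 1 (-0.30, adjusted p = 0.0694). The unpaired value of MSMO1 turned to 0.18 without control replicate 3 and to 0.046 without ACSS2 shRNA replicate 1.

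The other 6 genes of these late steps were the demethylase CYP51A1, the reductases TM7SF2, HSD17B7 and DHCR7, the dehydrogenase NSDHL and the desaturase SC5D. Their blocked log2 fold changes ran from -0.26 (HSD17B7) to 0.27 (TM7SF2), with none past the threshold in either fit. NSDHL was at -0.07 in the blocked fit and at 0.04 on the TPM scale. DHCR7, which makes cholesterol in the final step of the Kandutsch-Russell branch, measured 304, 208 and 308 CPM in control libraries 1 to 3, against 244, 298 and 379 CPM in the knockdown libraries. Its pairs disagreed in sign (-0.32, 0.52 and 0.30), and the groups overlap. In a blocked limma fit on log2(TPM + 1) TM7SF2 passed (0.37, adjusted p = 0.0450). DHCR7 passed in the blocked edgeR fit without replicate 1 (0.40, adjusted p = 0.0301).

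The sensors split. SREBF2, which encodes SREBP2, fell (gene ID 6721, chromosome 22, 41833105 to 41907305). It measured 358.1, 297.6 and 421.7 CPM in control libraries 1 to 3, against 135.7, 187.5 and 291.8 CPM in the knockdown libraries. The highest knockdown library lay just under the lowest control, so the groups do not overlap. SREBF2 had a log2 fold change of -0.81 ± 0.28 unpaired (adjusted p = 0.263) and -0.86 ± 0.16 blocked (adjusted p = 0.00203), 1.82-fold lower, and without replicate 1 the blocked value was -0.61 (adjusted p = 0.00322).

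INSIG1, the retention protein that is itself a target of SREBP2 (gene ID 3638, chromosome 7, 155297878 to 155310235), rose. It measured 121.0, 117.4 and 179.3 CPM in control libraries 1 to 3, against 165.6, 242.0 and 258.8 CPM in the knockdown libraries. Control replicate 3 lay above ACSS2 shRNA replicate 1, while each knockdown library exceeded its partner. The log2 fold change of INSIG1 was 0.67 ± 0.24 unpaired (adjusted p = 0.271) and 0.67 ± 0.13 blocked (adjusted p = 0.00325), and without replicate 2 the blocked call was lost (0.46, adjusted p = 0.0910).

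INSIG2, the second retention protein, measured 9.85, 7.70 and 9.43 CPM in control libraries 1 to 3, against 12.4, 12.4 and 10.2 CPM in the knockdown libraries. The groups do not overlap, but it was not called in either fit (0.38, SE 0.16, adjusted p = 0.112 blocked). It did pass in the blocked limma fit on log2(TPM + 1) (0.43, adjusted p = 0.0476). SCAP, the escort of SREBP2, stayed between 126 and 164 CPM over the 6 libraries and was not called (0.06, SE 0.12, adjusted p = 0.751 blocked).

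The promoters of 4 of these genes are printed as examples: SREBF2 and MSMO1 fell, INSIG1 and ABCA1 rose, all in the blocked fit. Whether promoter motifs differ between genes that fell and genes that rose was not tested. Each is copied from the RefSeq promoter table (GRCh38.p14), from 250 bases before to 50 bases after the start, 5′ to 3′ on the gene's strand. Capitals mark the sterol regulatory element core TCACNCCAC, where SREBPs bind, and the CCAAT box, read as CCAAT or ATTGG, where NF-Y binds.
SREBF2 (chr22:41832855-41833154, plus strand): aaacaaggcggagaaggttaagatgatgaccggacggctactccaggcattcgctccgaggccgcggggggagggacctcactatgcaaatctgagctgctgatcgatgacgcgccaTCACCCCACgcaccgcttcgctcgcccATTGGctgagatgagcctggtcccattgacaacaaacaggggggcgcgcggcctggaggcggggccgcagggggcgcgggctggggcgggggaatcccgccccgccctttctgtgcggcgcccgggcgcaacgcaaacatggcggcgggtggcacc
MSMO1 (chr4:165327419-165327718, plus strand): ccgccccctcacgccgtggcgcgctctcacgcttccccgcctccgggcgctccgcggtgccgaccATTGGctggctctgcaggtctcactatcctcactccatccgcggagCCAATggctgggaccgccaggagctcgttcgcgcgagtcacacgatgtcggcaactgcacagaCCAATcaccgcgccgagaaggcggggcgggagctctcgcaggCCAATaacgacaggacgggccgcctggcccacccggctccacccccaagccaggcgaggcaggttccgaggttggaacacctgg
INSIG1 (chr7:155297628-155297927, plus strand): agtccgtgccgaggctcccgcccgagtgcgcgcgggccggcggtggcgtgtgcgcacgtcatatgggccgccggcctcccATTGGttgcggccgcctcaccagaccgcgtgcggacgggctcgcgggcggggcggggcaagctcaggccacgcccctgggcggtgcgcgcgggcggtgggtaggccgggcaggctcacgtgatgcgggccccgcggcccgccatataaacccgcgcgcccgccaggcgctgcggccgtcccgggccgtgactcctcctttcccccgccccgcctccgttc
ABCA1 (chr9:104928106-104928405, minus strand): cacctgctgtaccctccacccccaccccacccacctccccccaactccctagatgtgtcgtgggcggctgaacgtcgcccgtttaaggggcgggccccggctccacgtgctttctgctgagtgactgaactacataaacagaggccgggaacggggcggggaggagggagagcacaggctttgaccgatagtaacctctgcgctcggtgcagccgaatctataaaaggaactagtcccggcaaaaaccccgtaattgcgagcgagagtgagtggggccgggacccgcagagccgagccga
Promoters were matched for 24 of the 27 tested genes, leaving ACAT2, FDFT1 and SQLE. Some genes have more than 1 listed promoter, and a gene was counted where any of them held the motif. Searched on both strands, the core TCACNCCAC was found in 1 of the 24, SREBF2, at position -133 from the start. It was in 1.55% of the 10589 tested genes with a promoter. This search holds exact matches alone, and no match says only that these letters are not in this window. The LXR direct repeat, also searched as an exact match, was found in 0 of the 24 genes and in 1 of the 10589. Imperfect copies of it were not searched, so whether the ABCA1 promoter holds an LXR site was not tested. The CCAAT box was in 18 of the 24 genes (43.3% of all) and the GC box GGGCGG, bound by SP1, in 23 (76.9% of all). SREBF2 and INSIG1 hold 1 CCAAT box each, MSMO1 holds 4 and ABCA1 holds none.

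Among the 4 genes of transfer and esterification, NPC1 and STARD4 rose, SOAT1 fell and NPC2 did not pass. NPC1, the membrane protein that moves cholesterol out of lysosomes (gene ID 4864, chromosome 18, 23506184 to 23586506), measured 171.0, 196.8 and 279.8 CPM in control libraries 1 to 3, against 242.8, 311.8 and 453.1 CPM in the knockdown libraries. Each knockdown library exceeded its partner by a near equal step (log2 ratios of 0.51, 0.66 and 0.70), while control replicate 3 exceeded ACSS2 shRNA replicate 1. The log2 fold change of NPC1 was 0.64 ± 0.27 unpaired (adjusted p = 0.354) and 0.62 ± 0.11 blocked (adjusted p = 0.00221). NPC2, its soluble partner, was between 108 and 136 CPM over the 6 libraries, and its blocked log2 fold change of -0.05 turned to 0.01 with library size only and to 0.06 on the TPM scale.

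STARD4, a cytosolic carrier that shuttles sterol between membranes (gene ID 134429, chromosome 5, 111496033 to 111512535), measured 23.6, 43.0 and 47.3 CPM in control libraries 1 to 3, against 39.0, 66.7 and 55.5 CPM in the knockdown libraries. The libraries numbered 1 were lowest in both groups, and the knockdown library numbered 1 lay under 2 controls. Its log2 fold change was 0.50 ± 0.30 unpaired (adjusted p = 0.492) and 0.53 ± 0.13 blocked (adjusted p = 0.00975), and the blocked call was lost without replicate 2 (0.44, adjusted p = 0.0960). SOAT1, the acyltransferase that esterifies cholesterol for storage in droplets (gene ID 6646, chromosome 1, 179293797 to 179358680), measured 32.5, 28.7 and 27.1 CPM in control libraries 1 to 3, against 14.9, 14.8 and 18.0 CPM in the knockdown libraries. The groups lie far apart. SOAT1 was 1.85-fold lower, on the log2 scale at -0.89 ± 0.18 unpaired (adjusted p = 0.0991) and -0.89 ± 0.14 blocked (adjusted p = 0.000889).

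ABCA1, which loads cellular cholesterol and phospholipid onto apolipoprotein A-I (gene ID 19, chromosome 9, 104781006 to 104928155), had the largest rise of the tested sterol genes. It measured 12.0, 5.59 and 7.10 CPM in control libraries 1 to 3, against 44.42, 18.98 and 15.01 CPM in the knockdown libraries. All knockdown libraries lay above all controls, and the libraries numbered 1 were highest in both groups. ABCA1 had a log2 fold change of 1.67 ± 0.46 unpaired (adjusted p = 0.175) and 1.60 ± 0.17 blocked (adjusted p = 0.000103), 3.03-fold higher, and the unpaired value was 1.03 (adjusted p = 0.410) without ACSS2 shRNA replicate 1. ABCG1, the exporter to mature lipoprotein particles, was too low to test, with 11, 4 and 6 counts in control and 7, 8 and 10 counts in ACSS2 shRNA.

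**Figure D3:**
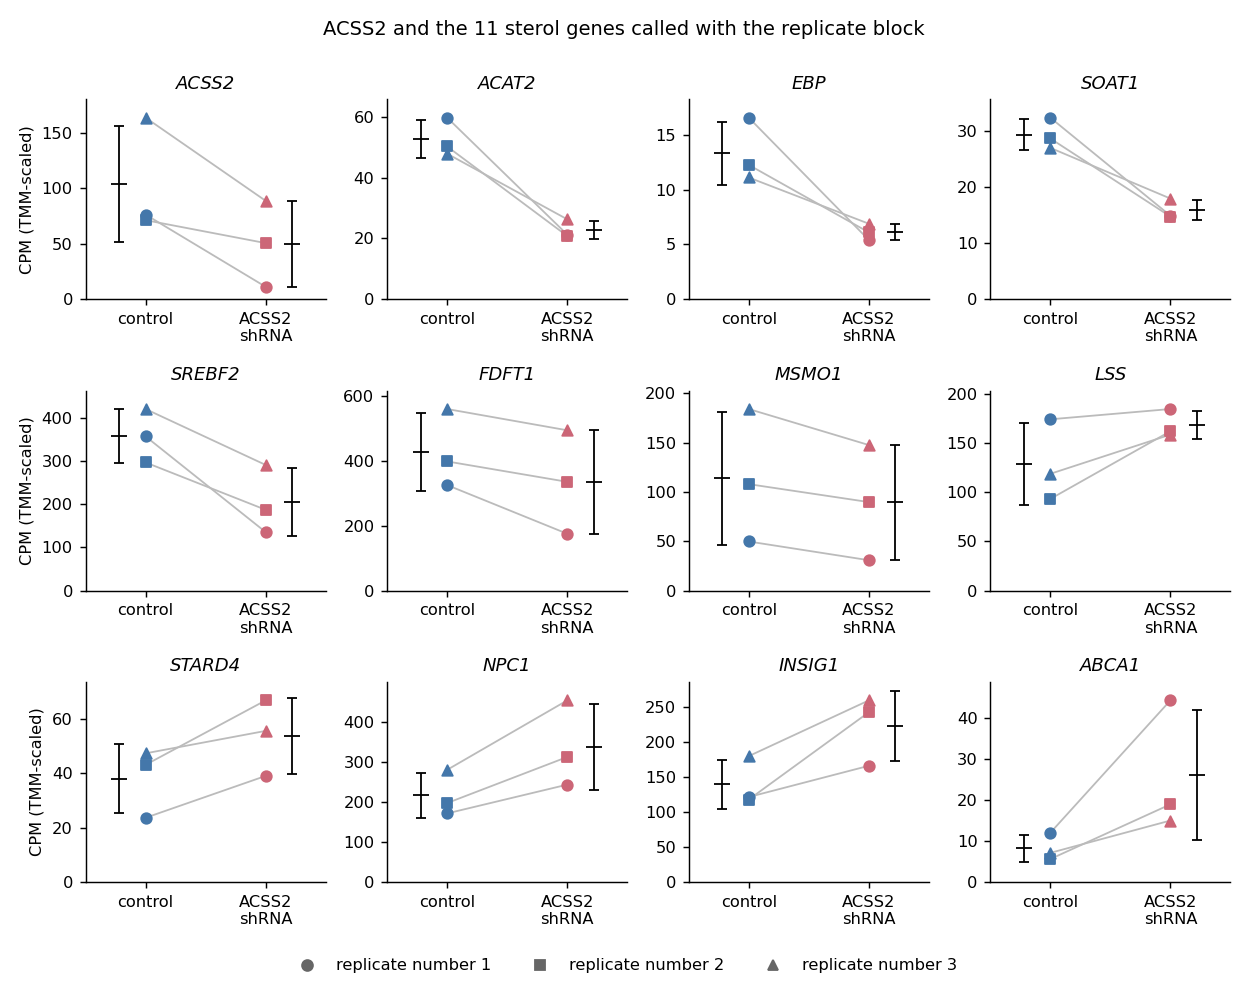
CPM in each library of ACSS2 and of the 11 sterol genes called in the blocked fit, with control in blue, ACSS2 shRNA in red, a marker shape and a grey line for each replicate number, and black bars for mean ± SD (n = 3). The groups separate for ACAT2, EBP, SOAT1, SREBF2 and ABCA1, whereas for FDFT1, MSMO1 and NPC1 every line falls or every line rises while the groups overlap.

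The size of the differences was not even over the pairs. All 6 genes that fell had their largest fall in pair 1, the pair with the largest fall of ACSS2, and 55.6% of all 1608 genes called lower did so too. Of the 5 that rose, 2 had their largest rise in pair 1 (STARD4 and ABCA1), 2 in pair 2 (LSS and INSIG1) and 1 in pair 3 (NPC1). Among all genes called higher, 45.9% had their largest rise in pair 1, 44.4% in pair 2 and 9.72% in pair 3. The median log2 ratio of the 27 genes was -0.29 in pair 1, 0.12 in pair 2 and -0.01 in pair 3, beside 0.04, -0.00069 and 0.02 for all genes tested. A total of 7 of the 27 genes were higher in all 3 pairs and 9 were lower in all 3, where 30.5% of all genes tested were higher and 27.3% lower in all 3.

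**Figure D4:**
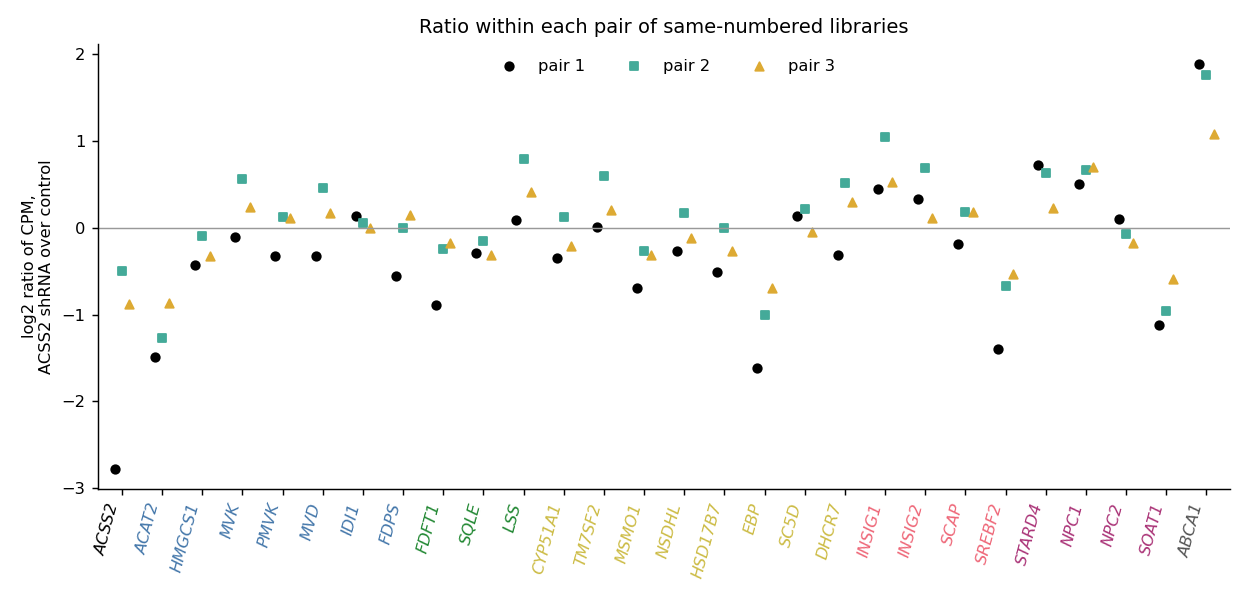
Log2 ratio of CPM (ACSS2 shRNA over control) in each of the 3 pairs of libraries with the same number, for ACSS2 and the 27 tested sterol genes. The black circles of pair 1 are the lowest point for all 6 genes that fell, and ABCA1 is above 1 in all 3 pairs.

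The replicate number itself separated many sterol genes, a comparison added after the data were seen. In the blocked fit, 14 of the 27 differed between numbers (edgeR F test of the replicate number, adjusted p under 0.05), where 38.7% of all genes tested did. The library numbered 1 was the lowest in both groups for 9 genes (HMGCS1, IDI1, FDFT1, SQLE, MSMO1, HSD17B7, SC5D, STARD4 and NPC1), against 25.4% of all genes tested. The widest step was in MSMO1, at 2.07 on the log2 scale between numbers 3 and 1 (adjusted p = 1.0e-05), followed by HMGCS1 at 1.59 (adjusted p = 3.1e-05). ABCA1 went the other way, at -1.20 (adjusted p = 0.000699), and so did LSS at -0.40 (adjusted p = 0.0429). The summed proliferation list, given above, was highest in the libraries numbered 1 of both groups. What the numbers stand for beyond the batch tag is not stated in the sources used here.

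**Figure D5:**
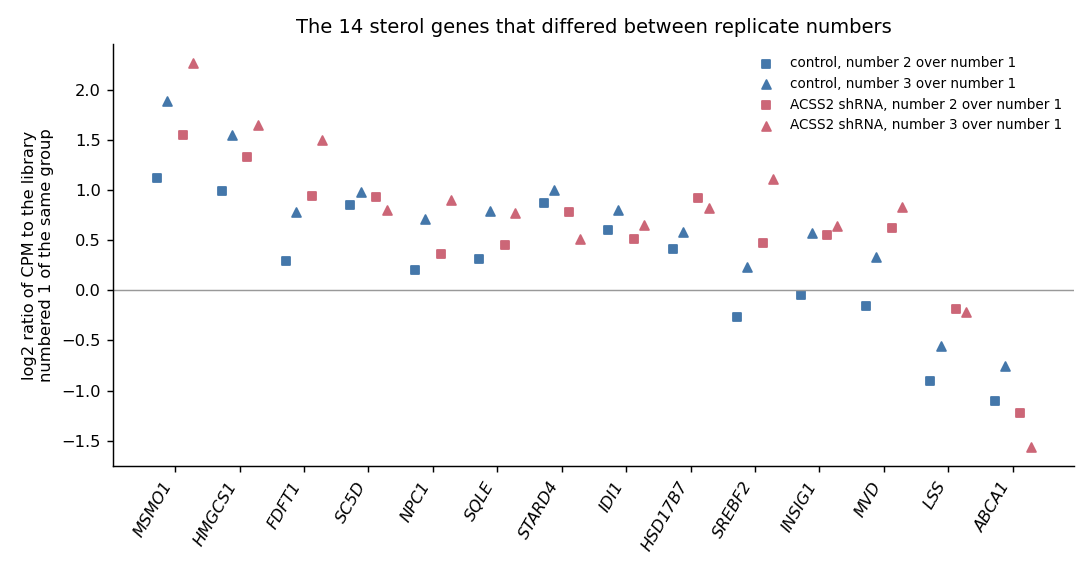
Log2 ratio of CPM to the library numbered 1 of the same group, for the 14 sterol genes that differed between replicate numbers, with control in blue and ACSS2 shRNA in red (squares for number 2, triangles for number 3). Points of MSMO1 and HMGCS1 lie furthest above 0, and those of LSS and ABCA1 lie below 0 in both groups.

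The 3′ UTRs, taken as the longest protein-coding one in GENCODE 29, were read for 2 short words. TGGGTC, which an earlier look at these data had raised, was present in 29.4% of 12767 tested genes, in 44.5% of those called lower and in 27.0% of those called higher in the blocked fit. Among the sterol genes it was in 10 of 27: all 5 that rose, 3 of the 6 that fell (MSMO1, SOAT1 and SREBF2) and 2 of the 16 not called (MVK and TM7SF2). It was present in sterol genes of either direction. Because the word came from these same data, its shares among called genes are not separate evidence, and 3′ UTR length was not taken into account. SREBF2 holds 3 copies and ABCA1 holds 1, shown with 11 bases on either side:
SREBF2, base 648 of its 3′ UTR: caagtccgcccTGGGTCcagacatcatc
ABCA1, base 744 of its 3′ UTR: gcttcgagccaTGGGTCtacagggtcat

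An intron of SREBF2 encodes miR-33a, a microRNA known to repress ABCA1, and it was looked at after the values of both genes had been seen. Its mature strand (RefSeq, chr22:41900949-41900969, plus strand) has its seed, bases 2 to 8, in capitals. ABCA1 holds the 7-base match CAATGCA 4 times in its 3′ UTR, at bases 135, 140, 150 and 1475. The matches at bases 135 and 140 overlap each other. Capitals mark those at bases 140 and 1475, and the window of base 140 also holds those at bases 135 and 150 in lower case.
hsa-miR-33a-5p: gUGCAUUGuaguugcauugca
ABCA1, base 140: actattcaatgCAATGCAattcaatgcaa
ABCA1, base 1475: tttaattgcaaCAATGCAaaagccaagaa
The same match was in LSS and SCAP among the 27 genes and in 9.24% of all genes tested. In the blocked fit, it was in 8.64% of all genes called higher and in 7.2% of those called lower. Of the sterol genes, it was in 2 of the 5 that rose (ABCA1 and LSS) and in 0 of the 6 that fell. Poly(A) libraries do not measure the mature microRNA, so its level was not tested.

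Further genes of the same pathways were read from a list of 37, of which 35 were tested. In the unpaired fit none passed, with 4 higher and 4 lower at an unadjusted p under 0.05, beside the 6.89% and 7.11% of all genes. In the blocked fit 9 rose, 7 fell and 19 did not pass, beside the 12.7% and 12.4% given above. Of 7 genes of precursor supply and other sterol steps, 5 fell and 1 rose, and of 9 genes of SREBP processing 4 rose and none fell. TMEM97, an endoplasmic reticulum protein that binds NPC1, measured 55.5, 40.3 and 34.2 CPM in control libraries 1 to 3, against 21.5, 18.4 and 21.8 CPM in the knockdown libraries (blocked log2 fold change -1.05, adjusted p = 0.000429). ACAT1, the mitochondrial thiolase, measured 76.1, 113 and 78.4 CPM in control libraries 1 to 3, against 54.6, 66.5 and 65.0 CPM in the knockdown libraries (-0.51, adjusted p = 0.00953). LBR, which reduces sterols in the inner nuclear membrane, measured 53.2, 43.2 and 29.5 CPM in control libraries 1 to 3, against 28.2, 29.2 and 25.7 CPM in the knockdown libraries (-0.57, adjusted p = 0.0123). For these 3 genes all knockdown libraries lay below all controls.

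SREBF1, the paralogue of SREBF2 that leans towards fatty acid genes, measured 318, 90.5 and 135 CPM in control libraries 1 to 3, against 371, 279 and 328 CPM in the knockdown libraries. Control replicate 1 overlaps the knockdown libraries, and the blocked log2 fold change of SREBF1 was 1.04 (SE 0.21, adjusted p = 0.00337). This call was lost in a blocked DESeq2 fit (1.02, adjusted p = 0.0725). The SREBF genes thus moved in opposite directions in the blocked edgeR fit. Of the lipoprotein receptors, LRP1 rose from 83.6, 59.9 and 90.6 CPM to 168, 130 and 137 CPM (0.90, adjusted p = 0.000404) and VLDLR rose from 17.4, 13.3 and 15.6 CPM to 31.4, 27.8 and 24.9 CPM (0.86, adjusted p = 0.000818). LRP8, a receptor of the same family, fell from 87.2, 86.6 and 71.3 CPM to 44.6, 62.7 and 57.4 CPM (-0.58, adjusted p = 0.00757). ABCA7, a close relative of ABCA1, rose from 10.7, 9.07 and 10.2 CPM to 20.2, 20.1 and 17.8 CPM (0.95, adjusted p = 0.000660). Except for SREBF1, none of these genes had overlapping groups.

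In the authors' deposited table, whose DESeq2 comparison covers all 28 genes, 4 had a q under 0.05: ACAT2 (log2 fold change -1.24, q = 9.35e-06), SOAT1 (-0.92, q = 0.00336), EBP (-1.15, q = 0.00531) and ABCA1 (1.63, q = 0.0159). That table calls 2.51% of all its genes with a q. In the same deposited comparison SREBF2 was at -0.83 (q = 0.145) and INSIG1 at 0.65 (q = 0.255).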

How the data were processed

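The deposited table holds expected counts per gene and TPM for 6 libraries, made by the authors. RSEM, Bowtie2 and HISAT are named in the submitters' processing notes, while annotation and counting strand are not stated in the sources used here. A DESeq2 comparison by the authors was deposited too (log2 fold change, p-value, q-value). Another 6 columns of per-sample values (FPKM) were not used. Expected counts were rounded and tested over 13003 genes in edgeR 4.0.16 (R 4.3.3) by quasi-likelihood, after TMM scaling and filterByExpr (minimum count 10, minimum total 15) and Benjamini-Hochberg adjustment over all genes tested at 0.05. The unpaired fit had no replicate term. The batch tag in the labels numbers the libraries. Log2 CPM deviations from the group mean correlated across genes by 0.716, 0.494 and 0.740 between libraries of the same number and at most -0.01 otherwise. Such deviations cancel within a group, so the values between unlike numbers are not separate evidence of pairing. The numbers were taken as pairs, and the fit with a replicate block is given beside the unpaired fit. Counting error and replicate spread enter the tests together.

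Alternatives were DESeq2 1.42.0, limma 3.58.1 on log2(TPM + 0.1) or log2(TPM + 1) for genes of at least 1 TPM in 3 libraries, RLE factors, library size only, no low-count filter and each library or pair left out; those of the scaling and filter within the blocked fit were chosen after seeing the data. The 28 genes and the other lists were chosen with earlier results of these data known. All 28 could be named, and of the list of 37 the 8 with the smallest blocked p. Gene positions and promoters are from RefSeq GRCh38.p14 and 3′ UTRs from GENCODE 29. Before use, 565 lines of spilled annotation text were left out and 26 symbols turned into dates were restored from gene IDs. FDFT1, MSMO1, SC5D and SOAT1 have counts that were not whole. By RefSeq spans NPC1 overlaps RMC1 (25639 bases), ABCA1 overlaps NIPSNAP3B (9894 bases) and NPC2 overlaps SYNDIG1L (209 bases). IDI1 overlaps WDR37 and MVK overlaps MMAB. In the blocked fit the log2 fold change was -0.245 for RMC1 (adjusted p = 0.179) and 0.16 for NIPSNAP3B (adjusted p = 0.819). Whether reads of these neighbours entered the counts was not tested.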

Additional observations from a re-analysis of the deposited data

How the results depend on the processing

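No sterol gene passed in the unpaired edgeR fit. The replicate block raised this to 5 higher and 6 lower, and DESeq2 without the block to 1 higher and 3 lower, where it called 199 of all genes higher and 284 lower. Without a low-count filter 1 gene was lower (ACAT2, -1.23, adjusted p = 0.0445), among 12 higher and 27 lower over all genes. In the blocked fit, leaving out a pair gave 2 to 7 higher (2 without replicate 2, where LSS, INSIG1 and STARD4 were lost) and 4 to 6 lower. Over all genes, the blocked fit called 1657 higher and 1608 lower, against 664 and 917 without replicate 2, 1382 and 1383 without replicate 1, and 1555 and 1554 without replicate 3. Among all genes called in the blocked fit, 50.8% were higher, against 67.9% by limma on log2(TPM + 1) with the replicate block. Limma on TPM moved the median of all genes to 0.11 or 0.12 (log2), and to 0.05 without its filter. Among the further genes, blocked calls were lost for ACAT1 without replicate 2 (-0.41, adjusted p = 0.110) and LBR without replicate 1 (-0.39, adjusted p = 0.0531). MVK was gained without replicate 1 (0.40, adjusted p = 0.0378). The cause of these changes was not tested.

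Signs turned for genes not called with all libraries in the fit concerned. With library size only, PMVK was 0.011 and NPC2 0.0060 unpaired, and 0.018 and 0.0051 with the replicate block. With limma on log2(TPM + 0.1), PMVK was 0.073, NSDHL 0.036 and NPC2 0.057. On log2(TPM + 1) the values were 0.070, 0.035 and 0.057, the same without its filter and with the block. Leaving out 1 library moved the unpaired log2 fold change from -0.59 to 0.14 for HMGCS1, -0.14 to 0.11 for PMVK, -0.053 to 0.32 for MVD, -0.15 to 0.22 for IDI1, -0.33 to 0.058 for FDPS, -0.92 to 0.18 for MSMO1, -0.19 to 0.054 for NSDHL, -0.15 to 0.32 for SC5D, -0.026 to 0.29 for DHCR7, -0.066 to 0.16 for SCAP and -0.14 to 0.024 for NPC2. Leaving out 1 pair moved the blocked one from -0.15 to 0.11 for PMVK, -0.11 to 0.31 for MVD, -0.28 to 0.062 for FDPS, -0.23 to 0.025 for NSDHL, -0.045 to 0.40 for DHCR7, -0.037 to 0.18 for SCAP and -0.13 to 0.014 for NPC2. With 3 libraries a group and a biological coefficient of variation of 26.6% unpaired (11.8% with the block), small differences could not be detected, and ABCG1 was too low to test.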
